A study of Homo sapiens with 4 samples.

Results

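The basic helix-loop-helix (bHLH) factors described here were HAND1, HAND2, TWIST1, TWIST2 and their relatives TCF15 and TCF21, together with the E proteins TCF3, TCF4 and TCF12, their dimer partners. Members were the rows of the expression table that carried one of these 9 gene symbols, and all 9 symbols were found, each in 1 row, among 58365 rows. HAND1, HAND2, TWIST1 and TWIST2 are HAND and TWIST family genes by name. TCF15 and TCF21 are tissue-restricted bHLH genes related to them, and the 3 E protein genes belong to another class of the same superfamily.

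bHLH factors bind DNA as dimers, and the tissue-restricted factors of the HAND and TWIST type usually pair with a broadly expressed E protein. The basic regions of the pair contact a short site called the E-box. ID proteins have the helix-loop-helix but no basic region, so they take up E proteins in dimers that do not bind DNA. HAND1 and HAND2 are known for their roles in the lateral mesoderm, heart and extraembryonic tissues, TWIST1 and TWIST2 for mesenchyme, TCF15 for the somites, and TCF21 for the epicardium and visceral mesoderm.

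The study examined whether Wnt signaling is needed for mesenchymal gene expression as pluripotent cells become mesoderm. Total RNA was profiled at day 2 of hematopoietic differentiation of H1 cells, a human embryonic stem cell line, cultured in Custom mTeSR1 with 40 ng/ml activin A and 50 ng/ml BMP4 in both groups by the sample labels, whereas the study's methods give these doses the other way round. The libraries formed 2 groups of 2, one given the solvent DMSO and one given IWP2, an inhibitor of porcupine, the enzyme that adds the lipid Wnt ligands need for secretion. Both groups came from 1 cell line at 1 time point, no untreated stem cells were analysed here, and nothing in the labels states that the replicates were separate cultures, so p-values measure only the spread between these libraries, which may be technical.

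Values are FPKM, fragments scaled to transcript length and to the mapped fragments of the library, and can be compared between genes. The number of reads behind a value is unknown, and with 2 libraries per group that number limits the precision. Per-library sums of FPKM ranged from 616418 to 653850, and 13831 to 13926 genes reached 1 FPKM. Libraries of 1 group correlated at 0.975 (DMSO) and 0.981 (IWP2) across genes, against 0.938 to 0.948 between groups. The mitochondrial transcript MT-ATP8 took 5.10% and 4.08% of the summed FPKM in replicates 1 of DMSO and IWP2 and 1.51% and 1.79% in replicates 2, so this share differed by replicate number and not by group. Genes with a mean of at least 0.5 FPKM (15980) were tested with limma on log2(FPKM + 1) and called at a Benjamini-Hochberg adjusted p below 0.05. On this scale the change of genes expressed at a few FPKM or less is understated.

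HAND1, HAND2 and the E protein gene TCF4 were lower with IWP2, and no member was called higher. Of the 8 members tested, 3 were called lower, where 7.35% of all genes tested were called lower, 5.81% higher and 13.2% in either direction. No member was higher at an unadjusted p below 0.05 in the limma test either. HAND2 passed the filter on low values through the DMSO libraries alone, so its level there was bound to exceed that with IWP2. TCF21 stayed under the filter and was not tested, and the other 5 members were not called.

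In DMSO the order of levels was HAND1, TCF3, TCF4, TCF12, then TWIST1 and HAND2, then TCF15 and TWIST2, then TCF21. TWIST1 and HAND2 did not differ beyond the spread of their 2 libraries, nor did TCF15 and TWIST2. With IWP2 the order was TCF3, HAND1, then TCF4 and TCF12, then TCF15 and TWIST1, then TWIST2, HAND2 and TCF21. There the libraries of TCF4 and TCF12 overlapped, as did those of TCF15 and TWIST1. HAND1 thus stood above TCF3 in both DMSO libraries and below it in both IWP2 libraries, and HAND2 moved from beside TWIST1 to just above TCF21.

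**Figure D1:**
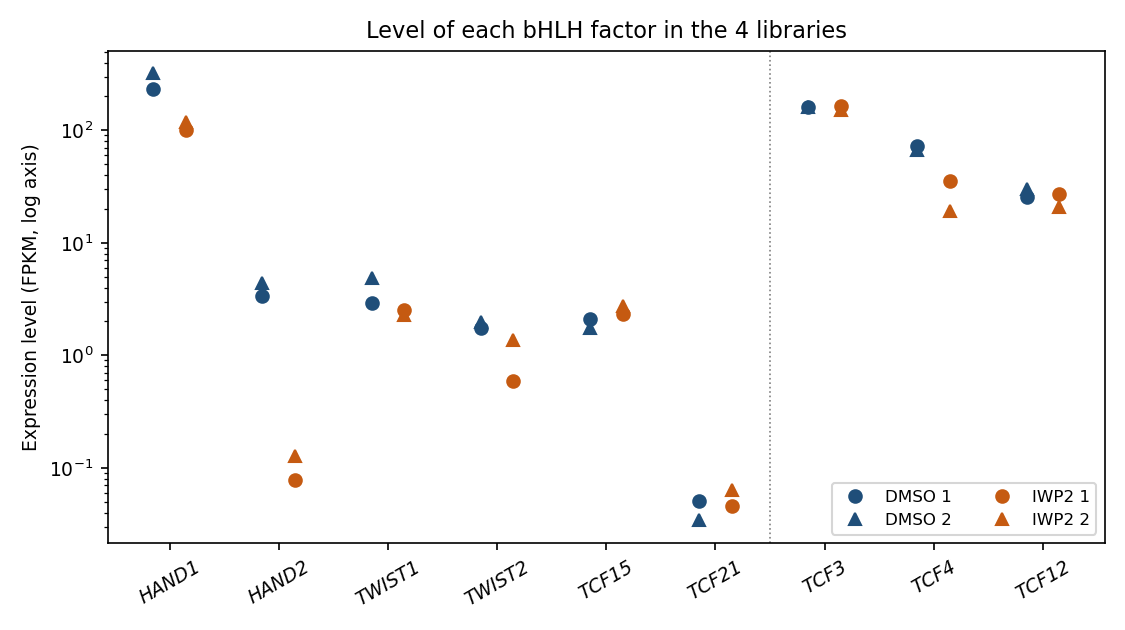
Level of each of the 9 genes in FPKM on a log axis, with 1 point per library (blue DMSO, orange IWP2, circles replicate 1, triangles replicate 2), the dotted line separating the E protein genes on the right. HAND2 fell from 3.38 and 4.35 to 0.0785 and 0.127 FPKM, whereas the 4 TCF3 points lie between 152 and 164 FPKM.

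HAND1 encodes the HAND factor of lateral and extraembryonic mesoderm and lies on chromosome 5 (chr5:154474972-154478264, minus strand, GRCh38). HAND2 encodes its close relative, needed for the right ventricle and limb bud, and lies on chromosome 4 (chr4:173524969-173530229, minus strand, GRCh38). The sequences directly before their start sites are shown because these are the members of the HAND family that fell together. They come from RefSeq on GRCh38 and are written 5′ to 3′ on the gene's strand. The HAND1 stretch covers 213 bases (chr5:154478265-154478477), which leaves out 37 bases before the RefSeq start that the gene's annotated exon covers, and the HAND2 stretch covers 250 bases (chr4:173530230-173530479). Capitals mark matches, on either strand, to CTTTGAT (the TCF/LEF-type motif of Wnt effectors), CANNTG (the E-box) and CCAAT (the CCAAT box).
HAND1: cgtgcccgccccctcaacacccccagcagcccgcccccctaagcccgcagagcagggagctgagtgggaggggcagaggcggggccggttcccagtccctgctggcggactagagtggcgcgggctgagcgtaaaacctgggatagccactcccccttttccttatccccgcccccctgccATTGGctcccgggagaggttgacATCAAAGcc
HAND2: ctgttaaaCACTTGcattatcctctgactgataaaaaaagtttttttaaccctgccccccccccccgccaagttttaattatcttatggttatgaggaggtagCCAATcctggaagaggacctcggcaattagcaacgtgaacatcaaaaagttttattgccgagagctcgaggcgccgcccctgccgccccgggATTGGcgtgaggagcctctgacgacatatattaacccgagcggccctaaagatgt

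These motifs were chosen after the sequences had been seen and are given as description. In the window from 250 bases before to 50 after the RefSeq start, HAND1 held CTTTGAT at positions -46 to -40 on the opposite strand, counted from the start site, and 2.62% of 35116 RefSeq windows of that length held this motif. HAND1 also held TATATA at -30 to -25, in the bases left out above, a motif found in 3.99% of windows, and no CANNTG. HAND2 held CANNTG at -242 to -237 and no CTTTGAT, and 68.7% of windows held the E-box. The CCAAT box was present in both windows, at -69 to -65 in HAND1 and at -147 to -143 and -55 to -51 in HAND2, beside 34.6% of all windows. RefSeq windows were found for 7 of the 9 members, and CTTTGAT was absent from the windows of TWIST2, TCF21 and TCF3, from the 10 of TCF4 and from the 5 of TCF12.

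HAND1 was the most highly expressed member in DMSO. Its level was 233.7 and 322.3 FPKM in the DMSO libraries and 100.5 and 118.9 FPKM in the IWP2 libraries (278 ± 62.6 against 110 ± 13.0, mean ± SD, n = 2 each). Both IWP2 libraries lay below both DMSO libraries, and the mean with IWP2 was 39.5% of that in DMSO. The log2 fold change was -1.32 (SE 0.18, 95% interval -1.78 to -0.86, adjusted p = 0.0126 by limma). With IWP2 only TCF3 among the 9 members had a higher level than HAND1. The HAND1 mean over the 4 libraries, which includes the higher DMSO values, was above that of 97.4% of the genes tested.

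HAND2 was far less abundant and kept a smaller share of its level. It was at 3.38 and 4.35 FPKM in DMSO and at 0.0785 and 0.127 FPKM with IWP2 (3.87 ± 0.685 against 0.103 ± 0.0345, n = 2 each), so 2.66% of the DMSO level was left, a 37.6-fold difference of means. The groups did not overlap, as in 58.6% of all genes tested. On the FPKM + 1 scale the log2 fold change was -2.13 (SE 0.18, 95% interval -2.60 to -1.67, adjusted p = 0.00408 by limma). With a pseudocount of 0.1 the same difference was -4.29. HAND2 passed the filter through the DMSO libraries alone, so its direction was bound to be lower and is not evidence by itself. Its IWP2 values were near 0, so the fold difference of means is imprecise. HAND2 amounted to 1.45% and 1.35% of the HAND1 level in the DMSO libraries and to 0.0781% and 0.107% in the IWP2 libraries. The ratio was lower in both IWP2 libraries than in both DMSO libraries, and this difference was not tested.

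HAND2 shares 867 exonic bases with HAND2-AS1, a noncoding gene on the opposite strand. The library kit did not mark strand, so reads in the shared bases cannot be told apart. HAND2-AS1 itself was at 0.240 and 0.670 FPKM in DMSO and at 0.0211 and 0 FPKM with IWP2, under the filter and not tested. Of 5 noncoding genes beside members that were looked for, 3 were found and 0 passed the filter.

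The HAND1 and HAND2 calls each rested on having both IWP2 libraries. Without IWP2 replicate 1 the adjusted p was 0.135 for HAND1 and 0.0749 for HAND2, and without IWP2 replicate 2 it was 0.0964 and 0.0635, with log2 fold changes of -1.20 to -1.44 for HAND1 and -2.10 to -2.17 for HAND2. With no filter on low values the adjusted p was 0.0954 and 0.0514.

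TWIST1 and TWIST2, the factors of cranial and dermal mesenchyme, were lower on average with IWP2 but were not called. TWIST1 (chr7:19020991-19117672, minus strand) was at 2.94 and 4.83 FPKM in DMSO and at 2.55 and 2.30 FPKM with IWP2, a log2 fold change of -0.49 (SE 0.23, 95% interval -1.06 to 0.09, adjusted p = 0.237 by limma). TWIST2 (chr2:238848032-238910543, plus strand) was at 1.75 and 1.98 FPKM in DMSO and at 0.587 and 1.37 FPKM with IWP2, a log2 fold change of -0.56 (SE 0.24, 95% interval -1.18 to 0.06, adjusted p = 0.210). For both genes the groups did not overlap, which was also so for 58.6% of all genes tested, and both intervals include 0 as well as a decrease of more than 1 on the log2 scale. Single libraries moved both values, since TWIST1 was at -0.77 without DMSO replicate 1 and at -0.20 without DMSO replicate 2, and TWIST2 at -0.27 without IWP2 replicate 1 and at -0.85 without IWP2 replicate 2, none of them called. TWIST1 shares 141 exonic bases with AC003986.2, a gene on the opposite strand.

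TCF15 (paraxis), a factor of somite epithelium, was at 2.08 and 1.75 FPKM in DMSO and at 2.35 and 2.74 FPKM with IWP2 (chr20:603797-610398, minus strand). Both IWP2 values were above both DMSO values, at 133% of the DMSO mean, and the difference did not pass the test (log2 fold change 0.28, SE 0.16, 95% interval -0.13 to 0.69, adjusted p = 0.326 by limma). TCF21 (chr6:133889138-133895553, plus strand) was near 0 in both groups, at 0.0508 and 0.0340 FPKM in DMSO and at 0.0461 and 0.0640 FPKM with IWP2. TCF21 shares 1383 exonic bases with TARID on the opposite strand.

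HAND1 therefore made up nearly all of the summed level of these 6 genes, between 94.7% and 96.1% in each library. The sum was 243.9 and 335.2 FPKM in DMSO and 106.1 and 125.5 FPKM with IWP2. In the DMSO libraries HAND1 was 69.1 and 66.7 times as high as the next of the 6 genes, and in the IWP2 libraries 39.4 and 43.4 times.

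**Figure D2:**
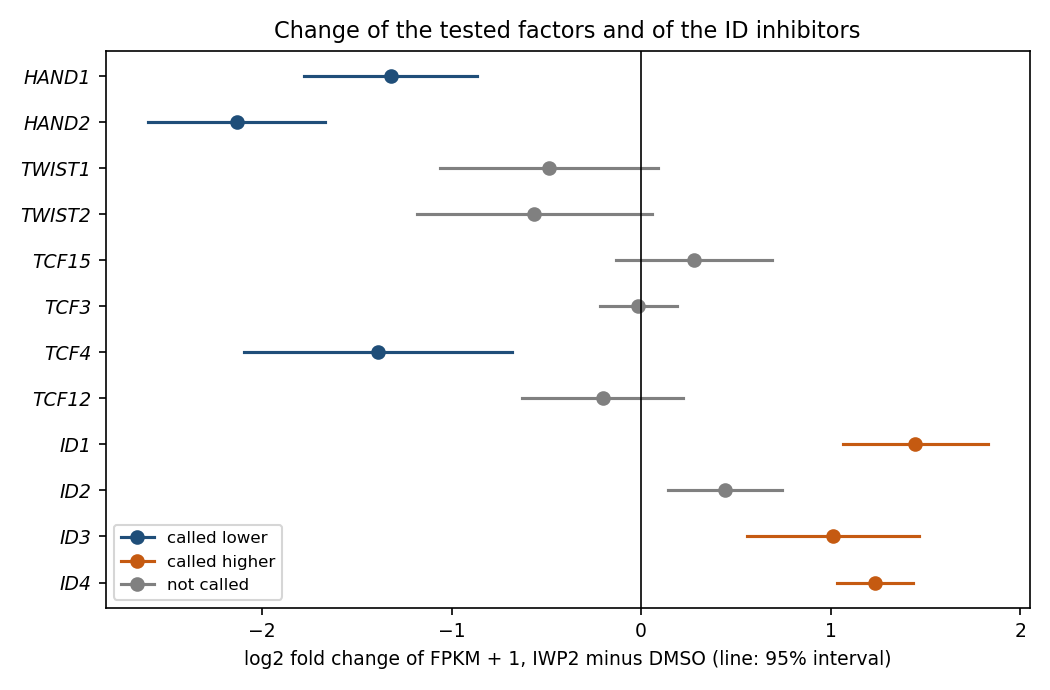
Log2 fold change of FPKM + 1 (IWP2 minus DMSO) with its 95% interval for the 8 tested members and for ID1 to ID4, coloured by the limma call. HAND1, HAND2 and TCF4 lie left of 0 and ID1, ID3 and ID4 right of 0, each with an adjusted p below 0.05, and the TCF3 interval runs from -0.22 to 0.19.

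Of the 3 E protein genes TCF4 was called lower and TCF3 and TCF12 were not called. TCF3 encodes E12 and E47 and lies on chromosome 19 (chr19:1609290-1652605, minus strand). It was at 159.8 and 159.5 FPKM in DMSO and at 164.2 and 152.2 FPKM with IWP2. The groups overlapped, and the log2 fold change was -0.01 with a narrow interval (SE 0.08, 95% interval -0.22 to 0.19, adjusted p = 0.931 by limma), its sign turning under quantile normalization (0.014). TCF12, which encodes HEB (chr15:56918623-57299281, plus strand), was at 25.3 and 29.9 FPKM in DMSO and at 27.4 and 20.6 FPKM with IWP2. Its groups overlapped as well (log2 fold change -0.20, SE 0.17, 95% interval -0.63 to 0.22, adjusted p = 0.483). Leaving out 1 library at a time moved the TCF12 value between -0.40 (without IWP2 replicate 1) and -0.0055 (without IWP2 replicate 2), with -0.32 without DMSO replicate 1 and -0.086 without DMSO replicate 2, none of them called.

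TCF4 encodes E2-2, which is distinct from TCF7L2, the Wnt effector also called TCF4 as a protein, and lies on chromosome 18 (chr18:55222331-55664787, minus strand). It was at 71.8 and 67.4 FPKM in DMSO and at 35.1 and 19.2 FPKM with IWP2 (69.6 ± 3.13 against 27.1 ± 11.3, n = 2 each), or 38.9% of the DMSO mean. Both IWP2 libraries lay below both DMSO libraries but differed from each other more than the DMSO libraries did. The log2 fold change was -1.39 (SE 0.28, 95% interval -2.10 to -0.68, adjusted p = 0.0359 by limma). The TCF4 call was lost without DMSO replicate 1 (adjusted p = 0.174), without DMSO replicate 2 (0.148), without IWP2 replicate 2 (0.0655), with no mean-variance trend in the fit (0.0592) and with no filter on low values (0.164). The TCF4 interval and that of TCF3 do not overlap, and the difference between the genes was not tested itself. TCF4 has 90 annotated transcripts, and a single value per gene does not show which of them changed.

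The make-up of the E protein pool differed between the groups. TCF4 made up 28.0% and 26.3% of the summed FPKM of the 3 E protein genes in DMSO and 15.5% and 9.98% with IWP2. TCF3 took 62.2% and 62.1% in DMSO and 72.4% and 79.3% with IWP2, and TCF12 took between 9.85% and 12.1% in every library. The sum itself was 256.9 and 256.8 FPKM in DMSO and 226.7 and 192.0 FPKM with IWP2, so it was 1.23-fold lower on average with IWP2. These sums and shares are descriptions with no test.

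Among the ID genes, which encode the inhibitors of E protein dimers, 3 of 4 rose and none was called lower. ID1 was at 789 and 644 FPKM in DMSO and at 1772 and 2137 FPKM with IWP2 (log2 fold change 1.45, SE 0.15, adjusted p = 0.00626 by limma). ID3 was at 83.6 and 98.5 FPKM in DMSO and at 157 and 216 FPKM with IWP2 (1.01, SE 0.18, adjusted p = 0.0258), and ID4 at 31.3 and 31.2 FPKM in DMSO and at 73.4 and 76.7 FPKM with IWP2 (1.24, SE 0.08, adjusted p = 0.00176). For ID2 the values were 113 and 136 FPKM in DMSO and 161 and 176 FPKM with IWP2, a difference that was not called (0.44, SE 0.12, adjusted p = 0.0741). ID genes are known targets of BMP signaling, and BMP4 was added to the medium of both groups. The RNA of the cells' own BMP4 gene fell from 171 and 193 FPKM in DMSO to 68.8 and 66.0 FPKM with IWP2 (-1.42, SE 0.09, adjusted p = 0.00182 by limma). BMP signaling was not measured here, and its part in the ID values was not tested. No ID gene was lower at an unadjusted p below 0.05.

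The summed level of ID1 to ID4 exceeded the E protein sum in all 4 libraries, and by more with IWP2. The ID sum was 1017 and 909 FPKM in DMSO and 2163 and 2606 FPKM with IWP2. Per unit of the E protein sum this was 3.96 and 3.54 in DMSO and 9.54 and 13.6 with IWP2, and per unit of the summed HAND, TWIST, TCF15 and TCF21 level it was 4.17 and 2.71 in DMSO and 20.4 and 20.8 with IWP2. RNA levels do not give protein amounts or dimers, and in bulk RNA fewer cells that express a gene and less RNA per cell cannot be told apart.

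**Figure D3:**
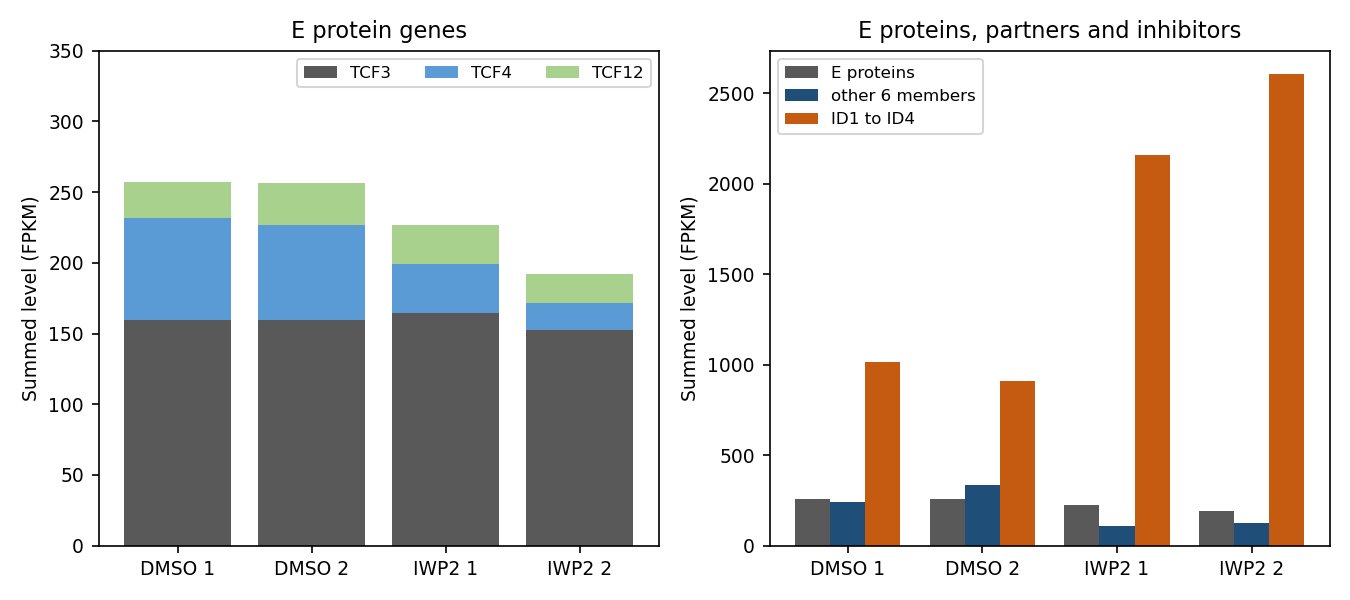
Left, FPKM of TCF3, TCF4 and TCF12 stacked for each library; right, summed FPKM of the 3 E protein genes, of the other 6 members and of ID1 to ID4 in each library. The TCF3 part keeps its height while the TCF4 part measures 71.8 and 67.4 FPKM in DMSO and 35.1 and 19.2 FPKM with IWP2, and the ID sum 1017 and 909 FPKM in DMSO and 2163 and 2606 FPKM with IWP2.

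Few of the other tissue-restricted bHLH genes that can pair with E proteins passed the filter. Of 41 such genes, 14 were listed at 0 in all 4 libraries and 9 passed the filter, of which 5 were called lower and none higher by limma, with 6 lower and 0 higher at an unadjusted p below 0.05. The 4 of largest change among those called were MESP1 and MESP2, the factors of nascent mesoderm, LYL1, a hematopoietic and endothelial factor, and BHLHE22. MESP1 fell from 47.6 and 74.6 FPKM to 0.244 and 0.0870 FPKM (log2 fold change -5.70) and MESP2 from 15.5 and 20.6 FPKM to 0.306 and 0.120 FPKM (-3.96). LYL1 fell from 3.88 and 3.80 to 0.353 and 0.412 FPKM (-1.81), and BHLHE22 from 3.39 and 2.60 to 0.382 and 0.625 FPKM (-1.41). In DMSO the level of HAND1 was thus above that of MESP1, and with IWP2 HAND1 stayed at 39.5% of its DMSO mean while MESP1 was left at 0.271%. TAL1, the bHLH regulator of blood formation, was below 0.1 FPKM in every library. MESP1, MESP2, LYL1 and ATOH8, 4 of the 9 genes tested, passed the filter through the DMSO libraries alone, so their direction was bound to be lower, and the counts are given as a description.

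Genes of the lateral and cardiac mesoderm, the tissues in which HAND genes act, were mostly lower with IWP2 as well. Of 20 such genes 17 were tested, and 12 of them were called lower and none higher by limma, with the same counts of 12 and 0 at an unadjusted p below 0.05. Over all genes tested, 7.35% were called lower and 5.81% higher. The median log2 fold change of the 17 was -2.02, beside -0.01 over all genes tested. This list and those below were chosen with earlier results of these data known, so their counts are given as description. FOXF1, PDGFRA and TBX20, 3 of the 12 called lower, passed the filter through the DMSO libraries alone, so their direction was bound to be lower. The transcription factor gene GATA6 fell from 119 and 134 FPKM to 3.52 and 3.01 FPKM (log2 fold change -4.90). BMP2, which encodes a BMP ligand, fell from 101 and 122 FPKM to 4.55 and 4.52 FPKM (-4.34), MSX1 from 36.3 and 29.6 FPKM to 1.04 and 1.23 FPKM (-3.99) and GATA4, a cardiac and endodermal regulator, from 62.6 and 76.1 FPKM to 3.41 and 3.54 FPKM (-3.97). The level kept with IWP2 ranged from 0.454% to 105% of the DMSO mean over the 17 genes, with a median of 14.8%. HAND1 at 39.5% kept more than 10 of the 17, and HAND2 at 2.66% kept more than 2 of them.

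**Figure D4:**
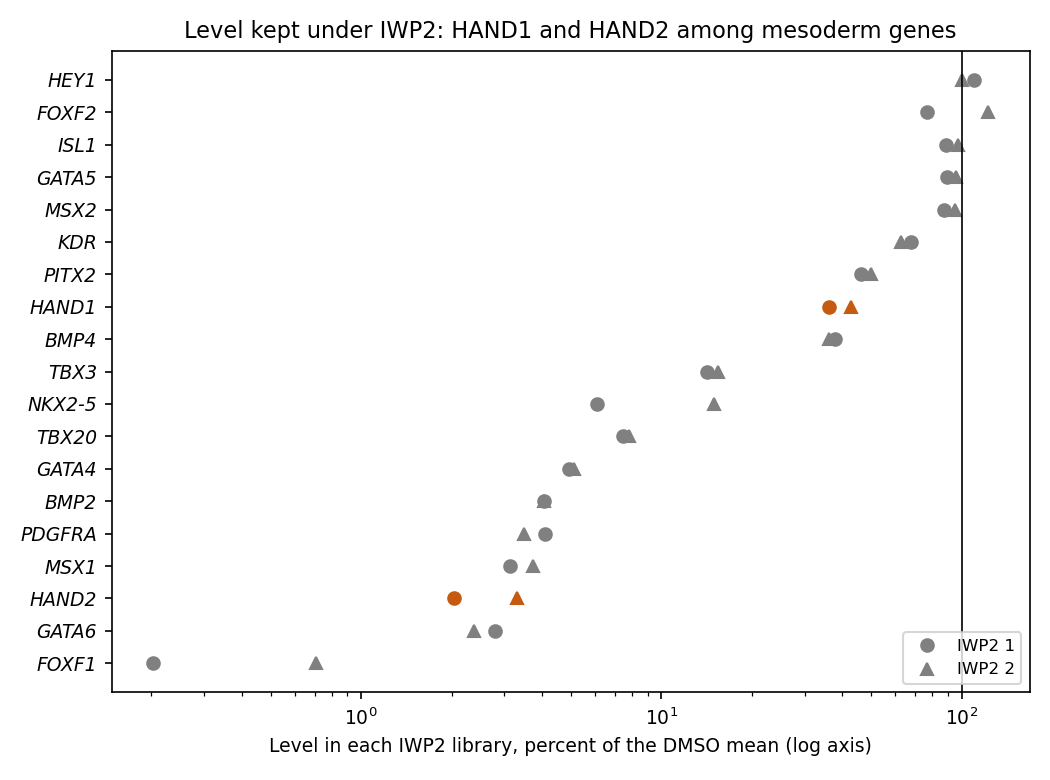
FPKM in each IWP2 library as a percent of the DMSO mean (log axis; circles replicate 1, triangles replicate 2) for HAND1 and HAND2 (orange) and the 17 tested lateral and cardiac mesoderm genes (grey), sorted by their mean. HAND1 lies in the upper part of the order at 39.5% and HAND2 near its lower end at 2.66%.

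Paraxial mesoderm genes, among which TCF15 would be grouped, were few. Of 13 listed, 5 were tested and 3 were called lower, with none called higher by limma (3 lower and 1 higher at an unadjusted p below 0.05). DLL3 fell from 44.9 and 81.6 FPKM to 0.254 and 0.292 FPKM (log2 fold change -5.60), FOXC1 from 4.49 and 4.96 FPKM to 0.593 and 0.524 FPKM (-1.88) and TBX6 from 8.78 and 11.8 FPKM to 1.96 and 2.26 FPKM (-1.85). DLL3 passed the filter through the DMSO libraries alone. The values of TCF15 were in the other direction, as given above, and its test did not pass. The somite genes MEOX1, MEOX2, PAX1, PAX3 and UNCX were each below 0.1 FPKM in all libraries.

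TWIST factors are known for driving the epithelial-mesenchymal transition, so other factors and targets of that program were set beside them. Of 10 such genes 5 were called lower and 2 higher (6 lower and 4 higher at an unadjusted p below 0.05). ZEB1, lower only at the unadjusted p, passed the filter through the DMSO libraries alone. SNAI2, which the study names a core transcription factor of the transition, fell from 14.4 and 19.0 FPKM to 0.792 and 1.02 FPKM (log2 fold change -3.20). VIM, the mesenchymal intermediate filament, fell from 519 and 713 FPKM to 79.4 and 89.6 FPKM (-2.84), ZEB2 from 7.07 and 12.7 FPKM to 0.533 and 0.729 FPKM (-2.69) and SNAI1 from 34.8 and 43.5 FPKM to 5.27 and 5.71 FPKM (-2.62). The 2 called higher were FN1, a mesenchymal matrix gene, and CDH1, the epithelial cadherin. FN1 rose from 235 and 153 FPKM to 794 and 769 FPKM (2.04), against the direction of the mesenchymal genes above. CDH1 rose from 32.6 and 29.7 FPKM to 120 and 124 FPKM (1.94). EPCAM and OCLN, epithelial genes too, were higher only at the unadjusted p. The list thus mixes mesenchymal and epithelial genes, and its counts do not describe a single program. TWIST1 kept 62.4% and TWIST2 52.4% of their DMSO means, against 5.44% for SNAI2 and 14.0% for SNAI1, and whether these changes differ was not tested.

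The genes whose pattern over the 4 libraries was nearest to that of HAND2, by the Euclidean distance between mean-centred log2(FPKM + 1) profiles, were ANGPT2, MFAP4, LRRC2, H2AFY2 and HEY2, at distances from 0.0713 to 0.109. ANGPT2, an angiopoietin gene, was also nearest in level, at 2.94 and 3.97 FPKM in DMSO and 0.0334 and 0.0691 FPKM with IWP2. MFAP4 was much higher, at 193 and 247 FPKM in DMSO and 46.7 and 47.7 FPKM with IWP2. Adding 1 to the FPKM shrinks the change of HAND2, so nearness on this scale does not mean an equal fold difference. In FPKM, MFAP4, LRRC2, H2AFY2 and HEY2 fell by a smaller factor than HAND2, and ANGPT2 by a larger one. For TCF4 the nearest were MLLT6, CEP112, AC104662.3, MCF2L2 and CYP1B1-AS1, at distances from 0.256 to 0.289, so the nearest gene to TCF4 was farther away than all 5 given for HAND2. In each of these 5 genes, as in TCF4, IWP2 replicate 2 was lower than IWP2 replicate 1. The choice by nearest profile over these same libraries favours such a shared order. MLLT6, for example, was at 13.8 and 14.4 FPKM in DMSO and at 6.83 and 4.21 FPKM with IWP2. Of the 5, AC104662.3 and CYP1B1-AS1 were not called (adjusted p = 0.0952 and 0.0690 by limma).

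Markers of the cell types that day 2 cultures could hold also differed between the groups, and their part in the members' changes was not tested. Of 12 Wnt target genes tested 10 were lower and none higher, and of 10 primitive streak genes 9 were lower and none higher (the same counts at an unadjusted p below 0.05). Of the genes called lower, 5 of the Wnt targets and 3 of the streak genes passed the filter through the DMSO libraries alone, as did 3 of the endoderm genes given next. SP5 and T were counted in both lists. SP5 fell from 53.2 and 47.0 FPKM to 0.379 and 0.363 FPKM, and T from 21.6 and 18.5 FPKM to 9.40 and 10.4 FPKM. Other lists shared genes as well, so their counts are not independent. GATA6 was counted as endoderm and lateral mesoderm, KDR as endothelium and lateral mesoderm, and CDX2 as Wnt target and amnion. Summed streak markers were 610 to 678 FPKM in DMSO and 58.7 to 64.8 FPKM with IWP2, and summed endoderm markers 1921 to 2309 FPKM and 126 to 137 FPKM, with 6 of 7 tested endoderm genes lower and none higher (7 and 0 at an unadjusted p below 0.05). CER1, a secreted inhibitor of Nodal, BMP and Wnt, was the most abundant of these in DMSO and made up most of the endoderm sum there. It was at 1612 and 2048 FPKM in DMSO and 38.6 and 34.2 FPKM with IWP2. SOX17, the tested endoderm gene that was not called, was at 155 and 104 FPKM in DMSO and 79.7 and 94.9 FPKM with IWP2. Summed pluripotency markers were 1062 to 1252 FPKM in DMSO and 2526 to 2532 FPKM with IWP2, with 6 of 8 higher and none lower (the same unadjusted). POU5F1 made up most of this sum, at 751 and 571 FPKM in DMSO and 1854 and 1844 FPKM with IWP2. SOX2 was at 0.193 and 0.174 FPKM in DMSO and at 35.6 and 36.1 FPKM with IWP2. SOX2, among the 6 higher, passed the filter through the IWP2 libraries alone, so its direction was bound to be higher.

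HAND1 is also expressed in extraembryonic cells, so amnion and trophoblast markers were examined as well. Of 8 tested, 3 were higher with IWP2 and 1 was lower (4 higher and 2 lower at an unadjusted p below 0.05). Among these, GABRP passed the filter through the IWP2 libraries alone and CDX2 through the DMSO libraries alone, so their directions were fixed. The summed level of the 11 genes found was 109 to 119 FPKM in DMSO and 148 to 153 FPKM with IWP2. CGA was below 0.1 FPKM in all libraries, and XAGE2 was listed at 0 in all of them. GATA3 was at 39.7 and 43.7 FPKM in DMSO and at 34.6 and 37.7 FPKM with IWP2. TFAP2C was at 33.9 and 16.8 FPKM in DMSO and at 53.7 and 53.8 FPKM with IWP2. GATA2 was at 14.9 and 22.6 FPKM in DMSO and at 11.3 and 9.74 FPKM with IWP2. GATA3, TFAP2C and GATA2 were not called. KRT7 rose from 0.833 and 0.864 FPKM to 5.85 and 8.22 FPKM, TFAP2A from 16.5 and 12.0 FPKM to 34.0 and 34.2 FPKM and GABRP from 0.467 and 0.455 FPKM to 2.13 and 2.40 FPKM, while CDX2 fell from 5.49 and 5.21 FPKM to 0.233 and 0.145 FPKM. Of 7 tested endothelial genes 3 were lower and none higher (the same unadjusted). LYL1, among the 3, passed the filter through the DMSO libraries alone, so its direction was bound to be lower. The sum over all 10 genes of the endothelial list was 71.1 to 73.6 FPKM in DMSO and 42.8 to 44.4 FPKM with IWP2. KDR, also a gene of the lateral mesoderm list, made up most of it, at 53.2 and 60.4 FPKM in DMSO and 38.6 and 35.7 FPKM with IWP2. PECAM1 and CDH5 were below 0.5 FPKM in all libraries. Of 3 tested genes of the neuroectoderm list, OTX2 was lower and NES higher (2 lower and 1 higher at an unadjusted p below 0.05). SOX1 was below 0.1 FPKM and HES5 at 0 in all libraries, so the OTX2 and NES values do not by themselves describe neural cells. PAX6, lower only at the unadjusted p, passed the filter through the DMSO libraries alone. The summed level of the neuroectoderm list was 149 to 156 FPKM in DMSO and 129 to 139 FPKM with IWP2. NES made up most of it, at 98.6 and 87.1 FPKM in DMSO and 136 and 125 FPKM with IWP2.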

How the data were processed

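The deposited table holds estimated FPKM values per gene for 4 libraries of H1 cells, made by the authors from total RNA with a kit that does not mark strand. The submitters' processing notes name BWA, Bowtie, RSEM and hg19 with no roles or versions. The header names no unit, and FPKM was taken from the values. Of the row IDs 95.47% were found in GENCODE 29, and 99.83% of these had its GRCh38 coordinates, so coordinates are given on GRCh38. Depth is not recorded, so no counting intervals are given.

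Genes with a mean of at least 0.5 FPKM were tested with limma 3.58.1 in R 4.3.3 on log2(FPKM + 1), with a mean-variance trend and two-sided p-values adjusted over all genes tested. The script was tested on simulated data. Groups came from the sample titles, and columns headed with a minus or a plus sign before IWP2 were read as DMSO and IWP2. Named genes were the 9 members, the 4 ID genes, up to 4 called genes of largest change per list and the 5 nearest profiles of HAND2 and TCF4, and others named for a role were chosen after their values were seen. The members and lists were chosen with earlier results of these data known. Alternatives were another pseudocount, other filters, TPM rescaling, quantile normalization, a replicate block, no trend and leaving out each library.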

Additional observations from a re-analysis of the deposited data

How the results depend on the processing

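As reported, 1175 genes were lower and 929 higher, and 3 members were lower. With no filter on low values, which raised the genes tested to 28917, 263 genes were lower, 118 higher and 0 members lower. Without 1 library, where the lone sample left in a group is assumed to vary like the other group, 138 to 580 genes were lower, 41 to 369 higher and 0 to 2 members lower. The lowest counts came without an IWP2 library, and the cause was not tested. The TCF3 log2 fold change turned to 0.014 under quantile normalization and ranged from -0.068 to 0.041 when 1 library was left out, turning only without IWP2 replicate 2. A fit with the replicate number as a block, which the labels do not tie to a shared source (correlation of same-numbered deviations 0.142), gave 1901 calls in all and the same 3 members, and changed no other member call. Of 86 alternative member fold changes 73 kept direction and call, 11 kept direction only and 2, both TCF3, turned. The filter at a mean of 2 FPKM left HAND2 and TWIST2 untested. The number of libraries limits what could be called, and the depth behind the values is unknown.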
